A study of Mus musculus with 3 samples.

Results

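The genes described here encode the hnRNP proteins, which coat newly made RNA, and core proteins of the spliceosome, the machine that removes introns. They were taken by symbol, as every gene that starts with Hnrnp, Snrp, Sf3a, Sf3b, Prpf or U2af and has at least 1 protein-coding transcript in the annotation. The rule gave 57 of the 55536 genes of the gene tables. The 57 genes fall into 20 Hnrnp, 12 Snrp, 9 Sf3a or Sf3b, 13 Prpf and 3 U2af genes. RNA of the cytosolic fraction was sequenced from bone marrow-derived macrophages of C57BL/6J mice, which are primary cells grown from marrow. Each of the 3 libraries came from cells exposed for 40 min to 100 ng/ml Lipid A, the part of bacterial lipopolysaccharide that Toll-like receptor 4 recognises. They are biological replicates 1, 2 and 3 of 1 group, made from total RNA after ribosomal RNA depletion, and their separate sample records share 1 donor record. The labels do not give the sex or age of the mice, and unstimulated cells were not analysed here, so no value is a response to Lipid A. The labels do not say whether separate animals were used, so each p-value refers to variation among 3 libraries that may be technical.

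Splicing needs small nuclear RNAs that carry a ring of Sm proteins, encoded by Snrp genes, and proteins specific to each particle. U2AF recognises the end of the intron, the SF3a and SF3b subunits hold the U2 particle on the branch site, and PRPF proteins serve in the particles that build and activate the catalytic core. hnRNP proteins bind exons and introns and influence which splice sites are used, and several shuttle to the cytoplasm with messages. Genes of RNA-binding proteins are known for transcripts that keep an intron or carry an early stop codon, and through which some of them limit their own level. GENCODE labels such transcripts as retained intron or nonsense-mediated decay. A further label without a coding sequence, processed transcript, is also given to transcripts that lie wholly inside the exons of coding ones. Here noncoding means a transcript with neither a protein-coding nor a decay label, and decay means a transcript with a nonsense-mediated or non-stop decay label.

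The libraries held 37861150, 37136495 and 58889061 expected counts in genes in replicates 1, 2 and 3, of which 180699, 174405 and 290706 fell on the 57 genes. Macrophage markers were all present, with 6 of 6 above 1 TPM (transcripts scaled by length and to a fixed sum) and means from 25.7 to 5974 TPM. Of 4 neutrophil markers 3 reached 1 TPM, the highest at 22.9 TPM, whereas Ly6g was listed at 0, and markers of T, B, stromal, erythroid and plasmacytoid dendritic cells stayed below 1 TPM. Replicate 3 stood apart in nuclear RNA: Malat1, a noncoding RNA held in the nucleus, had 291, 264 and 898 TPM in replicates 1, 2 and 3. Neat1, another nuclear noncoding RNA, had 27.8, 16.9 and 77.8 TPM. Protein-coding genes held 33.2, 37.04 and 24.1% of all TPM in the gene tables, so TPM values of coding genes are on a lower scale in replicate 3.

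Many noncoding transcripts of these genes run from an exon into an intron, and places where they do so are shown first because they set the noncoding transcript apart from the coding ones. For each gene the noncoding isoform with the highest mean TPM was compared with its leading coding isoform, which also numbers the introns. Windows of 30 bases, with 10 exon and 20 intron bases, are written 5′ to 3′ on the gene's strand, from the GENCODE M21 transcript sequences on mm10. Capitals mark the first or last 2 bases of the intron. The first lines are the ends of introns whose last part is kept, and the next lines the starts of introns whose first part is kept.
Snrpb2-203, end of intron 1: ttatttattatttcttttAGgctattggaa
Sf3b6-202, end of intron 2: gtcttctcactgttgtgcAGagggaataca
Prpf39-207, end of intron 2: cattgttttattttcatcAGaatcatttga
Snrpa-205, end of intron 5: ggctcccatctctcccacAGctctccgaga
Snrpg-204, start of intron 1: agctgaagaaGTgagtagagtcggccctat
Prpf31-205, start of intron 2: gtgtcggaagGTgcctcccaccctcacttt
Prpf4b-206, start of intron 2: cttctccgagGTaacctgttcacgaaacgc
Hnrnpll-204, start of intron 8: tattgaaaagGTacgttttattttttagtt
Sf3b1-203, start of intron 4: tttgcagatgGTaattctttcccacttttc
Sf3b1-203, end of intron 4: gttgctgttcttttctgcAGgagggaagac
Hnrnpl-208, start of intron 4: ctatggtggaATatccttttctgggaaact

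On mm10 the windows of Snrpb2, Sf3b6, Prpf39 and Snrpa lie at chr2:143064522-143064551 (plus strand), chr12:4826738-4826767 (plus), chr12:65043212-65043241 (plus) and chr7:27188945-27188974 (minus). Those of Snrpg, Prpf31, Prpf4b and Hnrnpll lie at chr6:86371605-86371634 (plus), chr7:3630896-3630925 (plus), chr13:34884418-34884447 (plus) and chr17:80038572-80038601 (minus). The start and end of Sf3b1 intron 4 lie at chr1:55016356-55016385 and chr1:55014553-55014582 (minus), and the Hnrnpl window lies at chr7:28814278-28814307 (plus). Windows of this kind were found in 35 of the 46 leading noncoding isoforms, in which 39 introns were entered, 10 of them over their whole length. Windows on chromosome 18 were left out of all counts given here, although genes there stay among the 46. Of 22 windows at intron starts 21 had GT, and all 24 at intron ends had AG. The exception was Hnrnpl intron 4, which starts with AT, a form known from introns of the minor spliceosome. Sf3b1-203 keeps all 1813 bases of intron 4, whereas Snrpb2-203 keeps only the last 140 of the 1443 bases of intron 1, and Hnrnpll-204 the first 1443 of the 3139 bases of intron 8. A window shows what the annotation contains and not how many reads crossed it.

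The hnRNP genes were the most abundant of the families. Of the 57 genes, 56 had a mean of at least 1 TPM in the gene tables, and 8, all of them Hnrnp genes, were in the highest 10% of 11428 detected protein-coding genes, which began at 42.3 TPM. The median over the 57 genes was 15.2 TPM, against 6.19 TPM over the detected protein-coding genes. Together the genes had 1634, 1772 and 1322 TPM in replicates 1, 2 and 3, which was 0.492, 0.479 and 0.549% of the TPM of protein-coding genes. Replicate 3 was thus lowest on the TPM scale and highest as a share of coding TPM. Hnrnp genes held 66.4% ± 1.43 of this sum (SD, n = 3), Snrp genes 11.7% ± 0.602, Sf3a and Sf3b genes 9.45% ± 0.504, Prpf genes 8.86% ± 0.412 and U2af genes 3.55% ± 0.219.

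**Figure D1:**
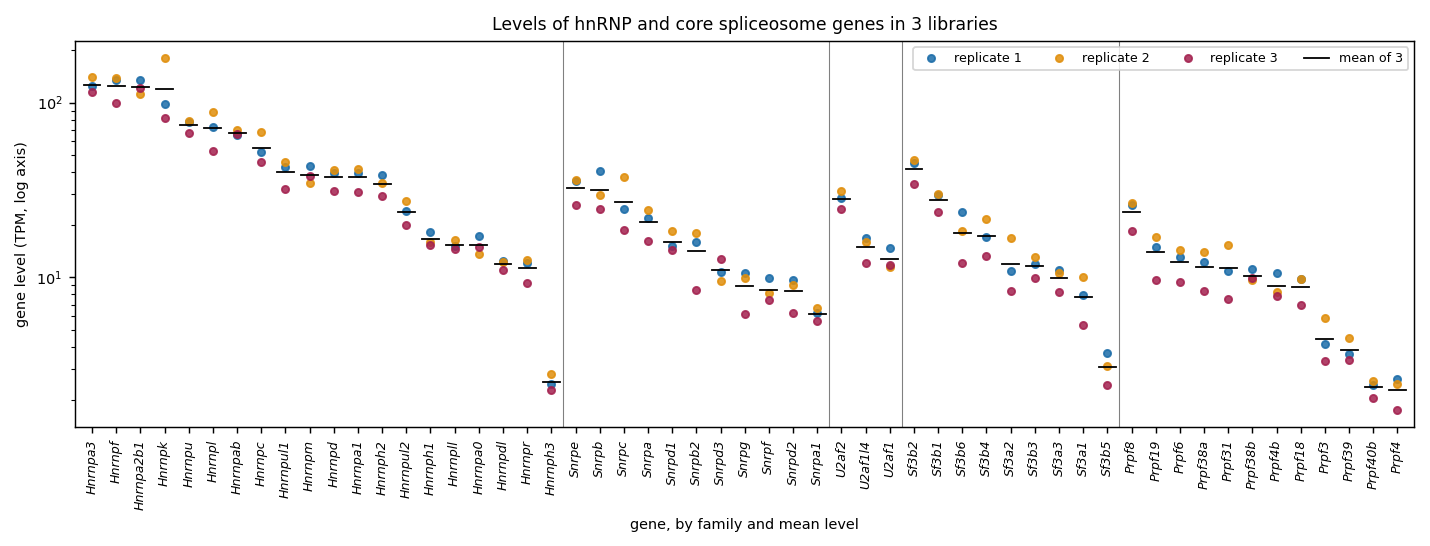
Levels of 55 of the 56 genes above 0 TPM in the gene tables, as TPM on a log axis, for replicates 1, 2 and 3 (coloured points) with the mean of 3 (bar), grouped by family and ordered by mean. The 4 highest genes are Hnrnp genes with means from 119.9 to 127 TPM, and Prpf4 is the lowest at 2.28 TPM.

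Hnrnpa3, a nuclear and cytoplasmic RNA-binding protein of the A/B group, had 124, 141 and 115 TPM in replicates 1, 2 and 3, or 127 ± 13.0 (SD, n = 3). Hnrnpf, which binds G-rich RNA, had 134, 138 and 99.2 TPM. Hnrnpa2b1, which binds RNA in both nucleus and cytoplasm and helps to transport messages, had 134, 112 and 122 TPM. Neighbours among these 3 genes changed place between libraries, each being above the next in 2 of 3. Hnrnpk, a KH-domain protein that binds C-rich RNA, followed with 98.3, 179 and 82.2 TPM, the widest range of the 4. In counts scaled to the library sum (log2 CPM, TMM-normalized) Hnrnpk had 8.33, 8.19 and 8.29. The high value of replicate 2 was thus limited to TPM, and replicate 2 was lowest in log2 CPM. By TPM Hnrnpk was above Hnrnpu, a large chromatin-associated hnRNP protein, in 3 of 3 libraries, where Hnrnpu had 77.5, 78.6 and 67.2 TPM. The other Hnrnp genes in the highest 10% were Hnrnpl, Hnrnpab and Hnrnpc, with means of 71.3, 67.3 and 55.0 TPM. Hnrnph3, the lowest of the family, had 2.47, 2.80 and 2.28 TPM.

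Among the Snrp genes, the Sm ring proteins Snrpe and Snrpb led. Snrpe had 35.4, 36.2 and 25.9 TPM and Snrpb 40.6, 29.7 and 24.6 TPM, and Snrpb was the higher in 1 of 3 libraries. Snrpc, a protein of the U1 particle that recognises intron starts, had 24.6, 37.5 and 18.7 TPM. Its highest value was in replicate 2 by TPM and also by log2 CPM (4.26, 4.73 and 4.30), whereas Hnrnpk was highest there by TPM only. Snrpn, a close relative of Snrpb known for expression in neurons and from the paternal allele, was listed at 0 counts and 0 TPM in all 3 libraries, and so was Snurf, which overlaps it on the same strand. Snrpb had 2088, 1429 and 2552 expected counts.

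Of the SF3 subunits, Sf3b2 had 44.9, 46.7 and 34.1 TPM. Sf3b1, which contacts the branch site region and is known for mutations in myelodysplasia, had 29.6, 30.1 and 23.7 TPM. Sf3b6, which contacts the branch adenosine, had 23.8, 18.4 and 12.1 TPM. Sf3b2 was the highest gene outside the Hnrnp family, and by TPM replicate 3 was the lowest library for all of these. TPM values of coding genes are on a lower scale in that library. In log2 CPM, Sf3b2 (7.55, 7.51 and 7.61) and Sf3b1 (7.86, 7.72 and 7.95) were highest in replicate 3. Sf3b6 (4.69, 4.38 and 4.36) was lowest there. The small subunit Sf3b5 was the lowest at 3.68, 3.10 and 2.41 TPM.

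Among the Prpf genes, Prpf8, the scaffold of the catalytic centre, had 26.0, 26.7 and 18.5 TPM. Prpf19, a ubiquitin ligase of the complex that activates the spliceosome, had 15.0, 17.0 and 9.72 TPM. Prpf4, a protein of the particle of U4 and U6 RNA, was lowest with 2.62, 2.46 and 1.75 TPM. By TPM, which is on a lower scale there, Prpf8, Prpf19 and Prpf4 had their lowest value in replicate 3. In log2 CPM that held for Prpf19 only, and Prpf8 and Prpf4 were lowest in replicate 2. Of the U2AF genes, U2af2, the subunit that binds the pyrimidine tract, had 28.4, 31.1 and 24.7 TPM. U2af1, the subunit that reads the AG at the end of the intron, had 14.8, 11.4 and 11.8 TPM. U2af1l4, a relative of U2af1, had 16.8, 16.0 and 12.1 TPM, each just below the authors' intervals of 17.2 to 22.0, 16.6 to 22.3 and 12.3 to 15.1 TPM, and its exons overlap those of Psenen on the opposite strand, which had 70.8, 83.0 and 46.1 TPM.

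Over the whole order of 57 genes, the higher of 2 neighbours was higher in 3 of 3 libraries in 12 of 56 neighbouring pairs, so most neighbours in the order cannot be separated. The order was set by the mean of the same 3 libraries, so this count does not show that the 12 pairs differ. Exons of 24 of the 57 genes overlap an exon of another annotated gene, of 20 of them on the opposite strand, and whether counting used strand is not given in the sources used here. Levels of those genes, and of genes with near-identical copies elsewhere, are uncertain to that extent.

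Related genes had the same order by their deposited TPM in every library. Hnrnpa2b1 was above Hnrnpa1, its closest relative here, by 1.70 ± 0.27 (SD, n = 3) on the log2(TPM + 1) scale, with 39.7, 41.6 and 30.8 TPM of Hnrnpa1. Hnrnpl, which binds CA-rich RNA, was above its relative Hnrnpll, known for the splicing of Ptprc in lymphocytes, by 2.12 ± 0.30, where Hnrnpll had 15.1, 16.4 and 14.5 TPM. Hnrnph1 and Hnrnph2 encode closely related G-tract binding proteins. Hnrnph1 had 18.3, 16.0 and 15.3 TPM and Hnrnph2 38.4, 34.8 and 29.2 TPM, a difference of -0.999 ± 0.0943. In replicate 2 the authors' interval for Hnrnph1, whose level is not given in the sources used here, was 16.2 to 43.3 TPM and covered that of Hnrnph2, 33.3 to 35.6 TPM. The deposited value of 16.0 TPM lay below its own interval, so the order of this pair is uncertain in that library. U2af1 was below U2af2 by a difference of -1.09 ± 0.25. These differences and that of Snrpb and Snrpn had the same sign in 3 of 3 libraries. For each of these 5 pairs the exact two-sided sign-flip permutation test gave p = 0.25, the smallest that 3 libraries allow, and adjustment over the 6 pairs computed leaves it at 0.25. For Snrpb and Snrpn no fold is given because Snrpn was listed at 0.

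Noncoding isoforms took a small share of most of these genes and a large share of a few. The share was taken from the second transcript table, as the percent of the gene's TPM, for genes with a mean of at least 1 TPM there. Of the 57 genes, 9 have no noncoding transcript in the annotation, among them Hnrnpf, Hnrnpab, Snrpe and Snrpn, and Prpf40b and Prpf4 fell below 1 TPM, which left 46. The median of the mean share over these 46 genes was 4.39%, and 4.29% over 6686 protein-coding genes that met the same conditions. By library the median was 3.80, 1.68 and 6.18% for the 46 genes and 3.26, 2.36 and 5.19% for the protein-coding genes. Of the 46 genes, 14 had a mean share under 1%, including Hnrnpa3, Hnrnpc, Hnrnpd and Sf3b2, and 26 a mean under 5%. Shares of protein-coding genes under these 2 limits were not computed, so these counts are not a trait of the 46 genes.

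A share of at least 20% in all 3 libraries was found in 7 of the 46 genes, or 15.2%, and in 11.5% of the protein-coding genes. They included Prpf39, Prpf38b, Snrpb2, Hnrnph1, Sf3b6 and Hnrnpm. Prpf31, just below this limit, had a share of 21.2, 22.9 and 14.3%, and Hnrnpm and Sf3b6, just above it, had a lowest value of 20.4 and 20.1%. By family, 3 of the 7 were Prpf genes, whose median share of 11.9% over 11 genes compares with 3.25% over 15 Hnrnp, 4.57% over 9 Snrp, 1.91% over 8 Sf3 and 5.19% over 3 U2af genes.

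**Figure D2:**
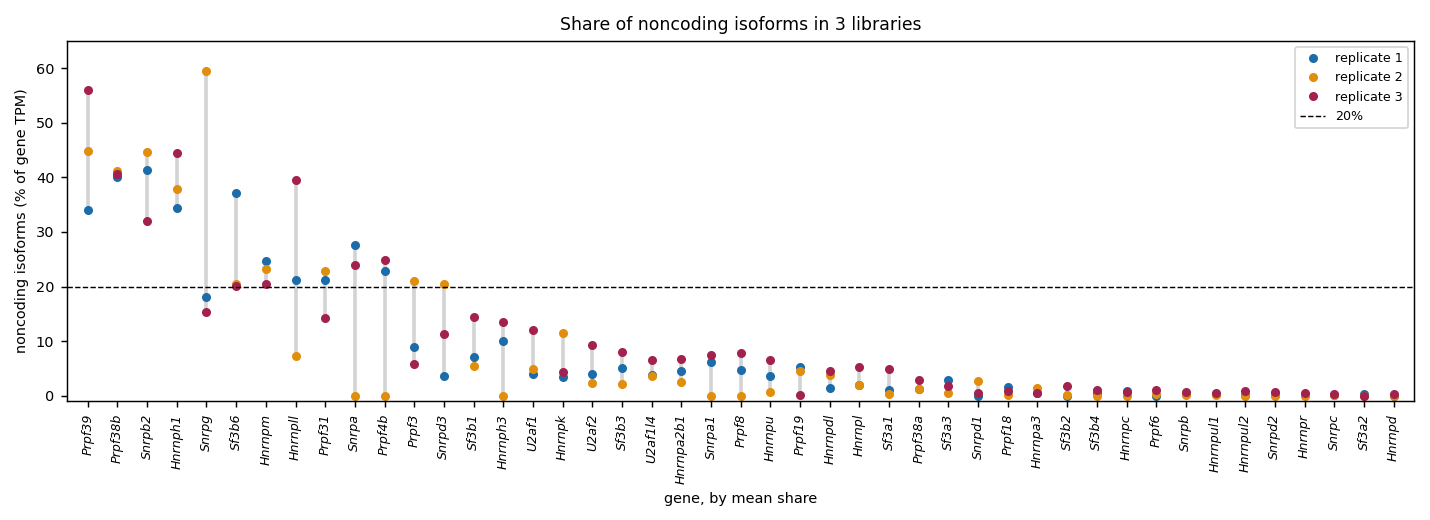
Share of each gene's TPM in noncoding isoforms (vertical axis, percent of gene TPM, second transcript table) for 45 of the 46 genes with a noncoding transcript, in replicates 1, 2 and 3 (points), with a grey line over their range and a dashed line at 20%. Prpf38b lies between 40.0 and 41.1% in every library (10.7 to 27.5% in the first transcript table), whereas Snrpg ranges from 15.4 to 59.4%.

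Prpf39, which is associated with the U1 particle, had the highest mean share, with 34.0, 44.8 and 56.0% in replicates 1, 2 and 3. Prpf38b, a protein related to the activation factor Prpf38a, had 40.0, 41.1 and 40.7%. The range between libraries in this table was thus narrow for Prpf38b and wide for Prpf39, whereas in the first transcript table Prpf38b had 25.6, 10.7 and 27.5%. Snrpb2, a protein of the U2 particle, had 41.3, 44.7 and 32.0%. Hnrnph1 had 34.4, 37.8 and 44.4%, over 15 annotated noncoding transcripts. Sf3b6 had 37.2, 20.6 and 20.1%, and Hnrnpm, a regulator of alternative splicing, 24.8, 23.2 and 20.4%. Snrpg, an Sm ring protein, had 18.1, 59.4 and 15.4%, so replicate 2 stood far above the others. Exons of Prpf39 overlap Fkbp3 on the opposite strand (12.3, 14.7 and 9.81 TPM), and those of Hnrnpm overlap March2 on the same strand (21.3, 25.4 and 14.5 TPM); their part in the shares was not tested.

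What these isoforms are differed from gene to gene. The leading noncoding isoforms of Hnrnph1 and Hnrnpm, Hnrnph1-215 and Hnrnpm-209, are processed transcripts with 0 bases outside the exons of coding transcripts. In Snrpb2 and Sf3b6 the leading isoforms, whose intron ends are among the printed windows, held 140 of 594 and 63 of 455 bases outside coding exons. Snrpb2-203 took 40.1, 43.2 and 27.8% of TPM, with 185, 206 and 150 estimated counts. Over the 46 genes, the leading noncoding isoform was a retained intron in 33 and a processed transcript in 13. It was shorter than 1000 bases in 33, with a median length of 693 bases against 2198 bases for the leading coding isoform. In 9 genes at least 90% of its bases lay inside coding exons, where reads cannot be told from those of coding transcripts except by their ends and junctions.

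TPM divides by length, and the mean noncoding share was lower in estimated counts than in TPM in 42 of the 46 genes. It was higher in the other 4, Hnrnpll, Prpf38a, Snrpb and Snrpc. The same comparison was not made over all protein-coding genes, so it does not set the 46 genes apart. In estimated counts the noncoding share of Snrpb2 was 12.4, 13.5 and 10.3%, that of Prpf38b 11.1, 9.34 and 17.3%, and that of Hnrnpm 4.13, 2.42 and 4.55%. Prpf39 and Hnrnph1 kept larger shares of counts, with 31.1, 31.8 and 44.0% for Prpf39 and 21.4, 20.6 and 33.5% for Hnrnph1. These were the only 2 genes at 20% or more in all 3 libraries on the count scale. The first transcript table, made by the authors from the same reads in another way, gave 2 such genes, among them Hnrnph1 with 37.7, 35.6 and 40.0% of TPM. Hnrnph1 was thus above 20% in every library by TPM of both tables and by counts. Snrpb2 in that table had 16.1, 26.6 and 3.30%, and Prpf39 16.2, 32.9 and 36.7%.

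Replicate 3 had the highest noncoding share in 28 of the 46 genes, or 60.9%, and in 56.2% of the protein-coding genes, while replicates 1 and 2 led in 9 genes each. The share of replicate 3 exceeded the mean of replicates 1 and 2 in 33 of the 46 genes, or 71.7%, and in 66.9% of the protein-coding genes, by a median of 0.773 percentage points over the 46, against 0.881 over the protein-coding genes. Replicate 3 was also the library with the most Malat1 and Neat1, and the part of nuclear RNA in these shares was not tested. The largest rise was in Hnrnpll, with 21.2, 7.33 and 39.5% in replicates 1, 2 and 3. Prpf39 rose next, as given above. In Prpf4b, a kinase of spliceosome proteins, the shares were 22.9% in replicate 1 and 24.95% in replicate 3, and in Snrpa, a protein of the U1 particle, 27.6 and 23.9%. Both stood at or near 0% in replicate 2, with 0.000812% for Prpf4b and 0% for Snrpa, although Snrpa had 1.45 TPM of its leading noncoding isoform in the first table of that library. Hnrnph3 had 9.98, 0 and 13.5%. For these 3 genes the rise rests on the value in replicate 2, and replicates 1 and 3 lay nearer to each other than to it.

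The lowest rises were those of Snrpg, given above, Snrpb2 and Prpf3. Prpf3, a protein of the particle of U4 and U6 RNA, had 8.87, 20.9 and 5.87%. In these genes the highest share was in replicate 2. The high value of Snrpg came from Snrpg-204, whose intron start is printed above, with 6.83, 60.8 and 16.5 estimated counts. Sf3b1, with the whole of intron 4 in its leading noncoding isoform, had shares of 7.10, 5.53 and 14.5%, and Sf3b1-203 alone 4.31, 4.62 and 8.62%, from 263, 291 and 809 estimated counts. Hnrnpl-208, the isoform with the AT intron start, took 0.711, 1.73 and 1.36% of Hnrnpl.

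By the TPM assigned to them, transcripts labelled as nonsense-mediated decay were the main form of Hnrnpu and Prpf4b, and of Hnrnpll in replicates 1 and 2 of the second table. In Hnrnpu they took 79.1, 84.3 and 80.1% of TPM in replicates 1, 2 and 3, nearly all in Hnrnpu-206, which had 29.6, 33.3 and 17.0 TPM against 6.46, 5.92 and 2.85 TPM for the leading coding isoform Hnrnpu-201. Hnrnpu-206 is 2844 bases long and has 3 exon junctions after its stop codon, the last of them 186 bases downstream of the stop. Junctions after a stop are the feature by which nonsense-mediated decay is known to recognise a message. Only 267 bases of Hnrnpu-206 lie outside the exons of coding transcripts. Reads on its other bases can be told from coding reads only by their ends and junctions. By estimated counts the decay share of Hnrnpu was 61.2, 66.2 and 66.6%, and it was 78.5, 81.8 and 80.3% of TPM in the first transcript table, so it was above 60% in every library on all 3 scales. Exons of Hnrnpu overlap those of Cox20 on the opposite strand, which had 13.5, 27.5 and 10.9 TPM, and the part of its reads in these values was not tested.

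Prpf4b had decay shares of 65.4, 88.9 and 63.3%, led by Prpf4b-208, which has 1 junction after its stop codon and 0 bases outside the exons of coding transcripts. Hnrnpll had 49.0, 60.0 and 38.9%, all in Hnrnpll-203, with 7 junctions after the stop. Of the 2742 bases of Hnrnpll-203, 83 lie outside the exons of coding transcripts, so its share too rests on how shared reads were assigned. The first table gave 68.9, 84.1 and 70.6% for Prpf4b and 36.0, 39.0 and 31.0% for Hnrnpll. In Hnrnpu, Prpf4b and Hnrnpll the leading decay isoform exceeded the leading coding isoform in 3 of 3 libraries, which held for 3 of the 24 genes with a decay transcript, or 12.5%, and for 5.02% of such protein-coding genes. In the second table, coding transcripts held 13.4 to 17.2% of Hnrnpu, 11.1 to 11.8% of Prpf4b and 21.6 to 32.7% of Hnrnpll. In the first table they held 45.4, 54.0 and 31.9% of Hnrnpll, above its decay share in every library. In replicate 3 of the second table the noncoding share of Hnrnpll, 39.5%, was above its decay share.

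**Figure D3:**
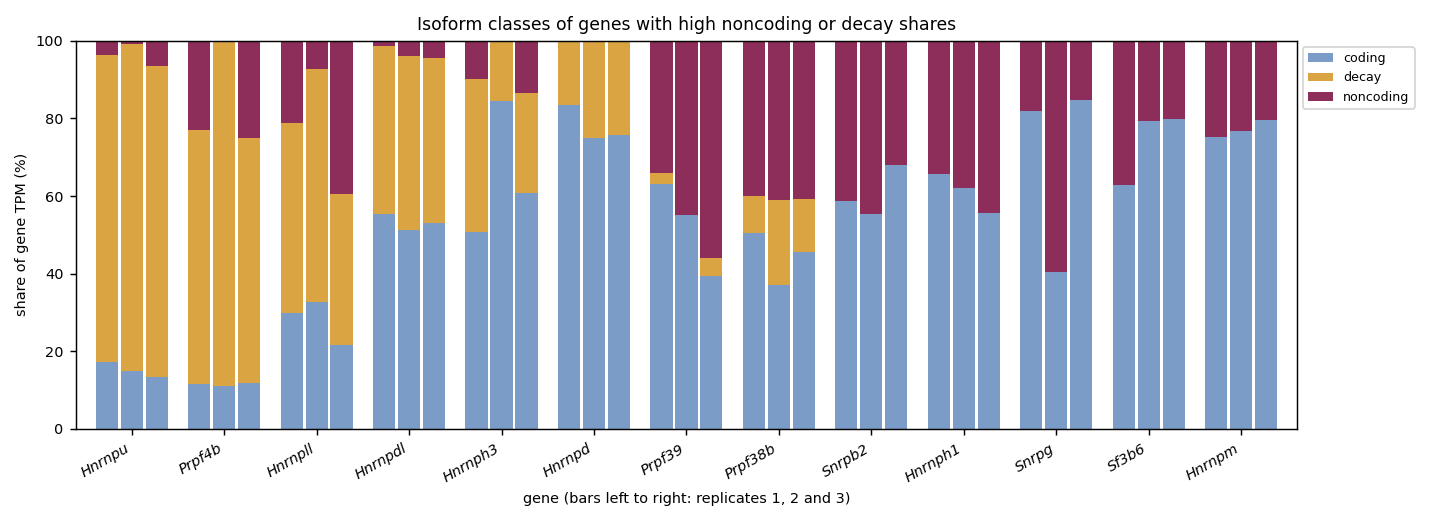
Share of gene TPM (percent, second transcript table) in coding, decay and noncoding isoforms, as stacked bars for replicates 1, 2 and 3 from left to right, for the 6 genes with the highest mean decay share and 7 with a high mean noncoding share. Decay isoforms fill 79.1 to 84.3% of Hnrnpu, and noncoding isoforms 32.0 to 44.7% of Snrpb2.

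Over the 24 genes with a decay transcript and at least 1 TPM, the median of the mean decay share was 5.62%, and 2.97% over 2592 protein-coding genes. A decay share of at least 10% in all 3 libraries was found in 7 of the 24, or 29.2%, and in 19.8% of the protein-coding genes with a decay transcript. Among the others Hnrnpdl, a relative of Hnrnpd, had 43.3, 44.8 and 42.4%, and Hnrnpd, which binds AU-rich elements of unstable messages, had 16.5, 25.1 and 23.96%. The range between libraries was narrow for Hnrnpdl, as for Hnrnpu. Summed over the 54 genes of the rule with a mean of at least 1 TPM in the second table, decay transcripts held 7.36, 7.19 and 7.96% of TPM. Noncoding transcripts held 5.71, 5.90 and 6.61% in replicates 1, 2 and 3. Over protein-coding genes with the same minimum the summed noncoding share was 6.39, 7.30 and 6.60%.

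The spread between libraries was tested on expected counts, with TMM normalization, across 12250 genes. By edgeR's goodness-of-fit test with Benjamini-Hochberg adjustment at 0.05, 0 of 56 genes varied more than genes of their abundance, against 1.71% of all genes tested. At an unadjusted p under 0.05 there were 2, Sf3a2 and Hnrnpa0, or 3.57%, against 6.15% of all genes tested. Sf3a2, a subunit of SF3a, had 4.75, 5.37 and 4.77 log2 CPM (counts scaled to the library sum), and replicate 2 was the high one. Its p was 0.0217 and its adjusted p 0.506 in edgeR, fitted across all genes. Hnrnpa0, an hnRNP protein of the A/B group, had 5.93, 5.48 and 6.16 log2 CPM. The edgeR p of this gene was 0.0243 and the adjusted p 0.548. Hnrnpa2b1 had the next smallest p, with 8.08, 7.72 and 8.39 log2 CPM and an edgeR adjusted p of 0.929. In both Hnrnpa0 and Hnrnpa2b1 replicate 3 was highest and replicate 2 lowest. The median SD was 0.147 log2 CPM over the 56 genes and 0.161 over all genes tested.

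No single gene passed the test, but most Hnrnp genes were highest in replicate 3 on this scale. Over the 56 genes, 33, or 58.9%, were highest in replicate 3, against 32.3% of all genes tested. The 33 comprised 17 of 20 Hnrnp, 6 of 13 Prpf, 4 of 9 Sf3, 4 of 11 Snrp and 2 of 3 U2af genes. The count of 17 Hnrnp genes was the same with RLE factors and with TMM over protein-coding genes. It was 11 of 20 for CPM without factors, where 21.6% of all genes were highest in replicate 3. It was 18 of 20 for TPM rescaled to protein-coding genes, where 35 of the 56 genes were highest in replicate 3. It was 0 of 20 for TPM as deposited, where replicate 3 is on a lower scale and was highest for 1 of the 56. The share over all genes was not computed on either TPM scale. The median difference between replicate 3 and the mean of the others was 0.20 log2 CPM for Hnrnp genes, 0.22 for U2af genes, 0.0019 for Prpf genes, 0.0093 for Sf3 genes and -0.0032 for Snrp genes, and -0.0031 over all genes tested. The largest differences were 0.49 log2 CPM for Hnrnpa2b1, 0.46 for Hnrnpa0 and 0.42 for Hnrnph1, and the lowest was -0.29 for Sf3a2. Malat1 and Neat1 were highest in the same library, at 10.62, 9.89 and 12.81 and at 8.04, 6.86 and 9.51 log2 CPM, and their part in the Hnrnp values was not tested. A list of 63 other spliceosome and RNA-binding genes, set beside these, had 23 of 63 highest in replicate 3 and 0 called by the same edgeR test, with 1 at an unadjusted p under 0.05.

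**Figure D4:**
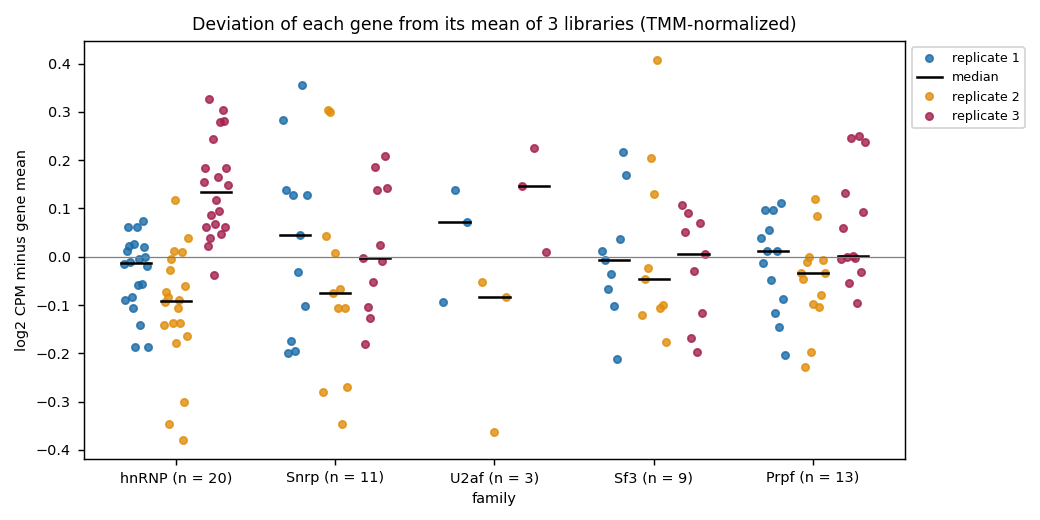
TMM-normalized log2 CPM of each of 56 genes minus its own mean over the 3 libraries (vertical axis), by family and replicate, with the median as a bar. In the Hnrnp family 17 of 20 genes are highest in replicate 3 on this scale (0 of 20 for TPM as deposited), and 4 of 11 in the Snrp family.

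The 63 other genes, which include helicases, Lsm proteins and RNA-binding proteins such as Ptbp1, were set beside these genes in level and isoform share. Each of the 63 reached 1 TPM, with a median of 12.3 TPM and a range from 2.04 to 192.5 TPM, and 4 of them were in the highest 10% of detected genes. Their median noncoding share was 4.03% over the 61 with a share, and 5 had at least 20% in all 3 libraries.

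The same reads gave lower levels for nearly all of these genes in the second transcript table than in the gene table. The difference passed 1.5-fold in the same direction in all 3 libraries for 52 of 56 genes, or 92.9%, and for 83.1% of protein-coding genes. Protein-coding genes held 15.6, 18.4 and 7.19% of TPM in the second table, so the table as a whole was on another scale. With both tables scaled to the sum over protein-coding genes, an alternative added after the values were seen, 1 of 56 genes passed, against 0.833% of protein-coding genes. That gene was Hnrnpa3, the most abundant by the gene table, with log2 differences of -1.10, -1.58 and -1.24. Its isoform Hnrnpa3-207 had 29.0, 55.2 and 43.9 TPM in the first transcript table and 0, 0.158 and 1.06e-08 TPM in the second. Other isoforms were lower there too. Hnrnpa3-202 had 75.0, 58.4 and 51.6 TPM in the first and 22.1, 16.6 and 11.5 TPM in the second. Hnrnpa3-204 had 8.28, 12.8 and 7.26 TPM in the first and 0.831, 0.713 and 0.518 TPM in the second. Over the whole gene the second table gave Hnrnpa3 26.9, 23.3 and 14.6 TPM, below Hnrnpf with 65.3, 71.7 and 30.3 TPM and Hnrnpa2b1 with 61.4, 55.4 and 35.5 TPM in every library. The first place of Hnrnpa3 in the order of levels was thus not shared by the second table. On the rescaled values Hnrnpf differed between the tables by 0.05, 0.07 and 0.03 on the log2 scale and Hnrnpa2b1 by -0.04, -0.0068 and -0.04.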

How the data were processed

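Cytosolic RNA of macrophages was measured in 3 libraries of 1 group, each with a gene table and a pair of transcript tables on mm10 with GENCODE M21, per the deposited notes. Per the deposited notes, the authors made the gene table and one transcript table (called first) from an alignment to the transcriptome; both give expected counts and TPM. Another transcript table (called second) was made by the authors from the reads themselves and gives estimated counts and TPM. No tool name or version is stated for either in the sources used here. TPM is scaled by effective length over all features of a table, so the TPM of coding genes also depends on the other features. Which features held the rest of the TPM was not tested.

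Levels are gene-table TPM. Isoform shares are percent of a gene's TPM in the second transcript table, for genes with a mean of at least 1 TPM there. Expected counts were rounded and tested in edgeR 4.0.16 (R 4.3.3) with filterByExpr, TMM, an intercept-only fit, trended dispersion, and a goodness-of-fit test adjusted over all genes; the script was tested on simulated data. Pairs were compared on log2(TPM + 1), which understates differences of low genes, by an exact permutation test. Detection meant a mean of 0.1 TPM or more. Tables were read in Python 3.11.15 with pandas 2.3.3.

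The genes named are, in each family, the 3 highest and the lowest by TPM, the 8 highest noncoding and 3 highest decay shares, the 5 largest and 3 smallest rises in replicate 3, the 3 smallest p, those that differ between quantifications, and the fixed pairs; others were named after their values were seen, and some genes that this rule names are not reported here, although counts include them. The members and lists were chosen with earlier results of these data known. A count of 0 allows up to 3 counts, and precision beyond counting error is limited to n = 3. Alternatives covered normalization, filters, pseudocount, the table used, and leaving out each replicate.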

Additional observations from a re-analysis of the deposited data

How the results depend on the processing

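Of 78 alternative values 65 were labelled as unchanged, some of them by construction. For pair differences this meant the same sign, and for medians a change within the SD between libraries. For counts of genes it meant an equal count or, outside the spread test, one within 1.5-fold. The spread test called 0 genes under each of 6 alternatives, and all 36 alternative pair differences kept their sign, with sign-flip p of 0.25 or, with 2 libraries, 0.5. Each pair had the same sign in all 3 libraries. Leaving out a replicate or changing the pseudocount could therefore not change it, and only the second transcript table and CPM could. The median level moved from 15.2 to 6.79 TPM with the second transcript table and to 50.0 with TPM rescaled to protein-coding genes, and it was 14.2 to 16.4 TPM with each replicate left out. The median noncoding share of 4.39% was 2.05% by estimated counts and 8.50% with decay transcripts included, and 3.14 to 5.16% with each replicate left out. The 7 genes at 20% or more in all libraries became 2 with the first transcript table, 2 by estimated counts, 2 at a mean of at least 10 TPM and 12 with decay transcripts included, and 7 to 10 with each replicate left out, where the same 7 remained. A gene that passes in all 3 libraries also passes in any 2, so only the floor of 1 TPM could have removed any of the 7. Replicate 3 had the highest noncoding share in 11 of 16 genes at a mean of at least 10 TPM, against 28 of 46. Shares over all protein-coding genes were not computed under these alternatives. The 52 genes that differed between quantifications became 0 with the first transcript table, whose sums equal the gene table by construction, and 1 with both tables rescaled to protein-coding genes, and were 52 to 55 with each replicate left out. Leaving out a replicate could not lower the count of 52. The 17 Hnrnp genes highest in replicate 3 became 11 for CPM without factors and 0 for TPM as deposited, where the direction turned. Every other scaling of this count was chosen after seeing the data, also those that gave 17 or 18. No paired analysis was possible because the 3 libraries form 1 group. Shares of genes at a few TPM rest on few reads, and shares of isoforms inside coding exons rest on how each tool assigned shared reads.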
